A study of Mus musculus with 24 samples.

Results

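The genes described are 8 members of the interferon regulatory factor (IRF) family, Irf1, Irf2, Irf3, Irf4, Irf5, Irf7, Irf8 and Irf9, taken by gene symbol from a table of 17696 genes and followed through 24 bulk RNA-seq libraries of MIN6 cells. MIN6 cells come from an insulinoma of the mouse and keep features of β cells. The 3 stable lines had been made with lentiviral vectors, of which Scr carried a scrambled sequence, ZIP an antisense sequence against miR-146a-5p, and OE a construct that expresses the microRNA. Each line was studied without cytokines (Scr, ZIP, OE) and after 24 h with IL-1β at 5 ng/ml, IFNγ at 100 ng/ml and TNFα at 10 ng/ml (Scr+Cy, ZIP+Cy, OE+Cy), with 4 libraries in each of the 6 groups. All lines had been selected with puromycin and expanded from single clones, and OE was built in a different vector, with a red instead of a green reporter, so the microRNA, the clone and, in OE, the vector cannot be told apart. The level of the microRNA itself was not analysed here. Each replicate number goes with its own prefix in the labels, shared by all 6 groups, whose meaning is not given. Nothing in the labels says that replicates were separate cultures, so p values measure the spread between these libraries, which may be technical.

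IRF proteins are transcription factors that bind interferon-stimulated response elements, DNA sites with repeated GAAA (an ISRE). IFNγ acts through its receptor and the kinases JAK1 and JAK2, and its early target genes carry gamma-activated sequences, while genes that answer to type I interferons are bound with the help of IRF9. IRF1 is the classical activator of the family under IFNγ and IRF2 its antagonist at many of the same sites. IRF3, IRF5 and IRF7 lie downstream of pattern recognition receptors, where phosphorylation lets them switch on interferon genes, and IRF4 and IRF8 are best known from lymphoid and myeloid cells.

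The sequences to which these proteins answer are shown first, because 5 of the 8 genes rose strongly with the cytokines. RefSeq windows of 300 bases, from 250 before to 50 after an annotated start (GRCm38.p6, the build of mm10), were given for all 8 genes, 11 windows in all. A gamma-activated sequence, TTCNNNGAA, was found on either strand in 3 of the 11 windows, against 8.3% of the 32851 windows of all genes, and an ISRE core, a pair of GAAA units with 2 arbitrary bases between them, in 1 of the 11, against 3.44%. The 3 windows with a match are those of Irf1 (chr11:53769764-53770063, plus strand), Irf2 (chr8:46739495-46739794, plus strand) and Irf8 (chr8:120736108-120736407, plus strand), printed 5′ to 3′ with the matches in capitals. Counted from the start site, the match began at -90 in Irf1 and at -171 and -153 in Irf8. In Irf2 the ISRE match began at -241 and the TTCNNNGAA match at -224, without sharing a base.
Irf1: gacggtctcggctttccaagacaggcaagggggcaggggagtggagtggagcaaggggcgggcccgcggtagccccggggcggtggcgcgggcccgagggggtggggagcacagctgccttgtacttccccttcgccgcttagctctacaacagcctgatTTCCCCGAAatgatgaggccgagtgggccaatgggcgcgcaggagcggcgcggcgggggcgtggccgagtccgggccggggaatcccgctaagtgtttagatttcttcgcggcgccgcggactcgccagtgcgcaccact
Irf2: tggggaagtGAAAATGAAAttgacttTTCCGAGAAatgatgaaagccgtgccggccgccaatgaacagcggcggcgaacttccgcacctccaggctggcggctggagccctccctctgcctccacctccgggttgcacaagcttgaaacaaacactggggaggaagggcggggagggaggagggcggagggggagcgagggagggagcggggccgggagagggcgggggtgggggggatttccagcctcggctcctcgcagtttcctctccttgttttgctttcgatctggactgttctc
Irf8: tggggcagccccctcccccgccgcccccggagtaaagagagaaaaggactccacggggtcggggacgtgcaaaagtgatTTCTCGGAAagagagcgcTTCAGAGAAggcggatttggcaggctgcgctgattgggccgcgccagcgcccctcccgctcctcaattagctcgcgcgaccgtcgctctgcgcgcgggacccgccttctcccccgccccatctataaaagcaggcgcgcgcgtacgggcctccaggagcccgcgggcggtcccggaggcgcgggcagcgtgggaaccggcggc
These letters were not found in the windows of Irf3, Irf4, Irf5, Irf7 and Irf9, nor in the second windows of Irf1, Irf8 and Irf9.

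The microRNA of the OE and ZIP constructs has the RefSeq mature sequence below, with its seed, bases 2 to 8, in capitals.
mmu-miR-146a-5p: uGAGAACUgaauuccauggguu
The complement of that seed, AGTTCTC, was not found in any annotated 3′ UTR of the 8 IRF genes in GENCODE M21, and 13.1% of the 15452 tested genes with such a UTR held it.

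Each library held between 26657792 and 37168232 reads on genes (median 30701023). Levels are read counts scaled to library size in the usual CPM unit, after TMM scaling, a correction for composition in edgeR. A gene was called when its edgeR adjusted p was under 0.05 and its fold change at least 1.5. All 11 β cell markers examined were listed, with sums of 24102 to 31293 CPM in Scr, 33320 to 35790 in ZIP and 48685 to 52500 in OE, and of 25790 to 27773, 30112 to 34436 and 30586 to 40104 with cytokines. The hormone genes Ins1, Ins2 and Iapp weighed most in the untreated sums, with group means of 674, 10933 and 3833 CPM in Scr and 7673, 18879 and 11431 in OE. Single markers went both ways, since Pdx1 (824 and 627), Nkx6-1 (254 and 167) and Mafa (1050 and 716) were lower in OE than in Scr. The summed markers of other islet cells, Gcg, Sst and Ppy, were 246 to 369 CPM in Scr, 101 to 305 in ZIP and 45.9 to 56 in OE, and 134 to 190, 78.3 to 218 and 8.94 to 34.7 with cytokines. That sum was mostly Gcg, with group means of 288 CPM in Scr and 41.4 in OE. Sst (0.0828 and 1.34) and Ppy (0 and 8.89) were higher in OE than in Scr. Both sums moved with the line, and their part in the IRF differences was not tested. Of 10 leukocyte markers, 7 were listed, with sums of 0.899 to 4.87 CPM, and Cd3e and Adgre1 were not among them. Summed fibroblast and endothelial markers were 12.5 CPM in Scr replicate 1, 30.4 in ZIP replicate 1 and 40.2 in Scr+Cy replicate 1, and at most 5.4 in the other libraries. Without those 3 libraries together, a choice made after seeing the data, the counts of IRF genes called changed only for OE+Cy against untreated Scr, from 7 to 6. In bulk RNA, fewer cells and less RNA per cell cannot be told apart.

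With cytokines, 5 of the 8 genes rose in Scr (Irf1, Irf2, Irf7, Irf8, Irf9), 6 in ZIP and 7 in OE, and none fell. Of all genes tested, 5.96% were called higher in Scr, 6.12% in ZIP and 11.8% in OE. The median log2 fold change of the 8 genes was 2.46 in Scr, 2.96 in ZIP and 3.21 in OE, beside 0.00, -0.01 and 0.02 over all genes. Irf3 passed the fold limit in no line, and Irf5 was called in OE only, a difference between lines that its own test did not show (log2 difference OE minus Scr 0.42 ± 0.42, SE, edgeR adjusted p = 0.546).

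**Figure D1:**
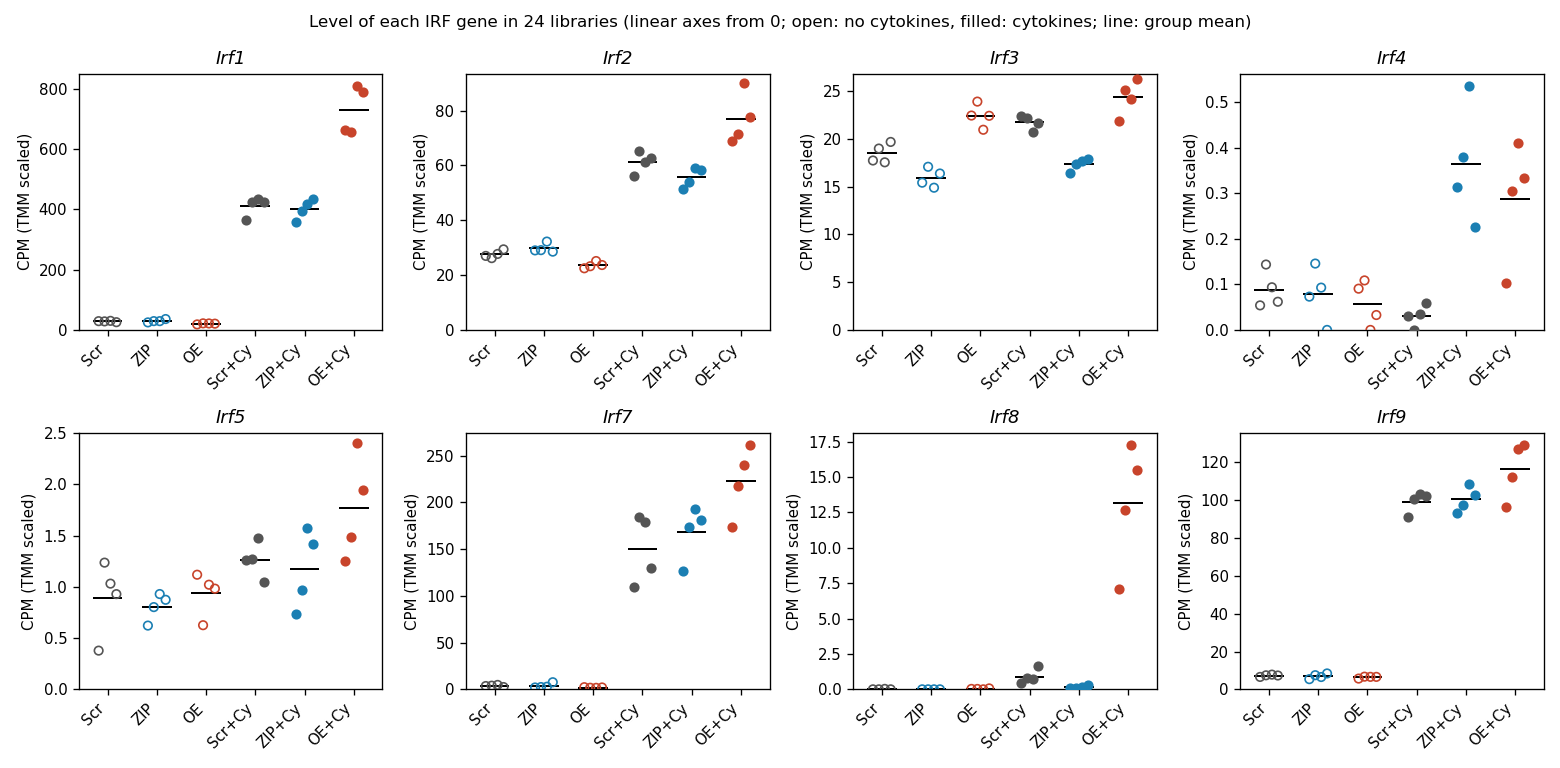
CPM of each IRF gene in the 24 libraries, on linear axes from 0, with 4 points per group (open without, filled with cytokines) and a line at the group mean. Irf1, Irf2, Irf7 and Irf9 stand higher in every library with cytokines than in every library without, and Irf8 exceeds 7 CPM in OE+Cy while no other library passes 1.62.

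Irf1 (chr11:53770014-53778374 in mm10, plus strand) encodes the IFNγ-induced activator. It stood at 29.1, 28.3, 30.1 and 25.6 CPM in the 4 Scr libraries and at 365, 424, 433 and 425 in Scr+Cy. In ZIP it went from 25, 29.2, 29.1 and 36.1 CPM to 359, 394, 417 and 433, and in OE from 18.3, 21.8, 21.5 and 20.8 to 662, 657, 810 and 789. The libraries with and without cytokines were far apart in each line, and all OE+Cy libraries lay above all others. The log2 fold change was 3.86 ± 0.10 (SE) in Scr, 3.75 ± 0.10 in ZIP and 5.15 ± 0.11 in OE, with edgeR adjusted p = 1.59e-18, 3.07e-18 and 1.72e-20. OE combined the lowest untreated level, 20.6 ± 1.59 CPM (SD, n = 4) against 28.3 ± 1.9 in Scr, with the highest level after cytokines, 729.5 ± 81.5 against 412 ± 31.6. The untreated difference was -0.46 ± 0.10, which passed the adjusted p (0.000418) but not the fold limit, and that with cytokines 0.83 ± 0.09 (adjusted p = 5.18e-08). The cytokine response was larger in OE than in Scr by 1.28 ± 0.13 (adjusted p = 1.09e-06), a ratio of folds of 2.43. Between ZIP and Scr the responses differed by -0.12 ± 0.13 (adjusted p = 0.941).

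Irf2 (chr8:46739745-46847458, plus strand), the antagonist of IRF1, rose less. Its levels were 27, 26.2, 27.7 and 29.4 CPM in Scr and 56.1, 65.3, 61.1 and 62.8 in Scr+Cy, and 22.5 to 25.1 CPM in OE against 69 to 90.1 in OE+Cy. No library with cytokines fell into the untreated range in any line. The log2 fold change was 1.15 ± 0.07 in Scr, 0.91 ± 0.07 in ZIP and 1.70 ± 0.07 in OE. As with Irf1, OE was lower than Scr untreated (-0.22 ± 0.07, adjusted p = 0.0153) and higher with cytokines (0.33 ± 0.07, adjusted p = 0.000393), neither past the fold limit. The difference of responses, 0.55 ± 0.10 (adjusted p = 0.000504), also stayed under that limit.

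Irf9 (chr14:55603985-55610030, plus strand) encodes a DNA-binding factor of the type I interferon response. Untreated libraries of the 3 lines lay between 5.38 and 8.4 CPM, and libraries with cytokines between 91.1 and 129. The lines overlapped at both ends of that step, and the order of the means with cytokines, OE+Cy (116 ± 15.2), ZIP+Cy (101 ± 6.68) and Scr+Cy (99.2 ± 5.51), separated no neighbours. The rise was 3.77 ± 0.11 in Scr, 3.85 ± 0.11 in ZIP and 4.18 ± 0.11 in OE on the log2 scale (adjusted p = 3.34e-18, 3.07e-18 and 4.0e-19). The response of OE exceeded that of Scr by 0.41 ± 0.14 (adjusted p = 0.0459), under the fold limit, and that p ranged up to 0.114 over the alternatives tried.

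Irf7 (chr7:141263183-141266424, minus strand), the factor that amplifies interferon production, had the largest log2 change of the genes with measurable untreated levels. It stood at 3.53, 3.91, 4.72 and 2.45 CPM in Scr and at 109, 184, 179 and 129 in Scr+Cy. In OE it went from 2.3, 1.69, 1.6 and 2 CPM to 173, 217, 239 and 261, and in ZIP+Cy it lay between 126 and 193. The untreated ZIP libraries held 1.98, 2.44, 2.76 and, in replicate 4, 7.59 CPM. That library also had the highest untreated sums of the IRF1 target list (178 CPM, against 37.7 to 54.2 in the other ZIP libraries) and of a list of interferon-stimulated genes (128 against 75.8 to 79.4), and their part in its Irf7 level was not tested.

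The Irf7 response was 5.36 ± 0.28 in Scr, 5.50 ± 0.29 in ZIP and 6.88 ± 0.31 in OE, and was larger in OE than in Scr by 1.52 ± 0.42 (adjusted p = 0.0112). The untreated OE libraries all lay below the Scr libraries, with a log2 difference of -0.95 ± 0.36 (adjusted p = 0.0289), the only untreated difference of an IRF gene that was called. It was no longer called without Scr replicate 2 or 3 or OE replicate 2 or 3, with adjusted p of 0.0569, 0.0968, 0.0669 and 0.0709. With cytokines OE was higher by 0.57 ± 0.22 (adjusted p = 0.0304), just under the fold limit, and the libraries overlapped. With DESeq2's size factors, with a replicate block (0.59, adjusted p = 0.0012) or without Scr+Cy replicate 2 or 3 or OE+Cy replicate 1 or 2, it passed that limit and was called, while DESeq2's own test gave 0.59 with an adjusted p of 0.0981.

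**Figure D2:**
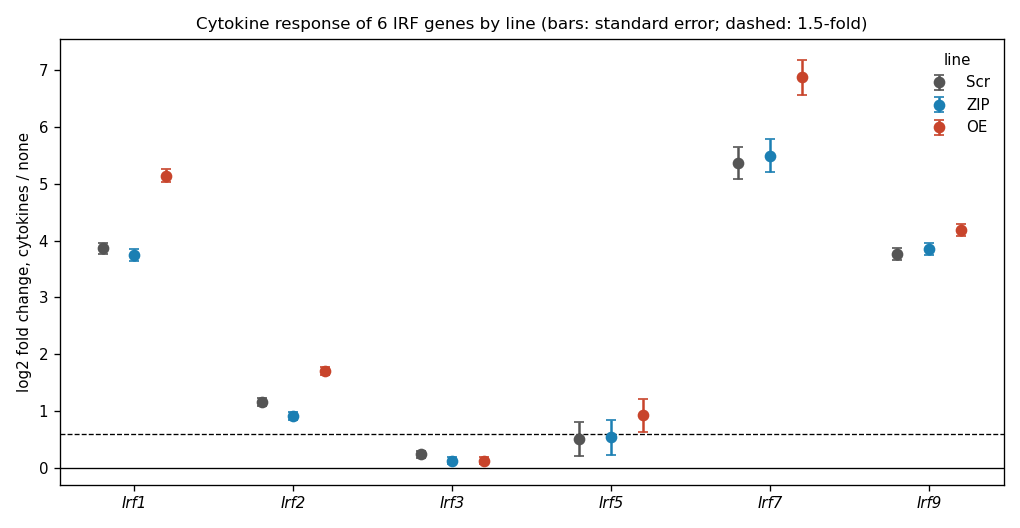
Log2 fold change between libraries with and without cytokines for 6 IRF genes, with standard errors and the 1.5-fold limit dashed. Irf4 and Irf8, which had few reads without cytokines, are not drawn. In Irf1, Irf2 and Irf7 the OE point (5.15, 1.70 and 6.88) lies above those of Scr and ZIP.

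Irf3 (chr7:44997648-45002848, plus strand), which in resting cells is already present and is controlled mainly by phosphorylation, was the steadiest gene of the family. Its levels were 17.7, 19, 17.5 and 19.7 CPM in Scr, 15.4, 17.1, 14.9 and 16.4 in ZIP, and 22.4, 23.9, 20.9 and 22.4 in OE. The 3 lines did not overlap without cytokines, with ZIP lowest and OE highest. With cytokines Scr+Cy held 20.7 to 22.4 CPM, ZIP+Cy 16.4 to 17.8 and OE+Cy 21.8 to 26.2. The log2 difference of ZIP from Scr was -0.21 ± 0.06 untreated (adjusted p = 0.0127) and -0.33 ± 0.06 with cytokines (adjusted p = 0.0003), and that of OE from Scr 0.28 ± 0.06 untreated (adjusted p = 0.000608). All of these were smaller than 1.5-fold. The cytokine response was 0.23 ± 0.06 in Scr (adjusted p = 0.00962), 0.12 ± 0.06 in ZIP (0.178) and 0.12 ± 0.06 in OE (0.126).

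Irf5 (chr6:29526625-29541869, plus strand) acts downstream of Toll-like receptors in myeloid and B cells, and was low in MIN6, at 14 to 76 reads per library. Its mean was 0.894 ± 0.367 CPM in Scr and 1.27 ± 0.173 in Scr+Cy, 0.807 ± 0.134 in ZIP and 1.17 ± 0.389 in ZIP+Cy, and 0.937 ± 0.215 in OE and 1.77 ± 0.508 in OE+Cy. Only the OE and OE+Cy libraries were separate, with a log2 fold change of 0.92 ± 0.30 (adjusted p = 0.013), and the call was lost without OE replicate 2 (adjusted p = 0.0505) or OE+Cy replicate 3 (0.0671). Irf5 overlaps Tnpo3 on the other strand, and the sources used here do not say whether counting used strand, so its values are uncertain. Tnpo3 stood at 167 CPM in OE and 135 in OE+Cy (-0.31 ± 0.05).

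Irf4 (chr13:30749233-30766981, plus strand), a factor of plasma cells and T cells, was represented by 0 to 14 reads per library. The counts were 2, 5, 3 and 2 reads in Scr and 1, 0, 1 and 2 in Scr+Cy, 2, 4, 3 and 0 in ZIP and 9, 11, 14 and 7 in ZIP+Cy, and 3, 4, 0 and 1 in OE and 3, 9, 13 and 11 in OE+Cy. ZIP+Cy was separate from ZIP and from Scr+Cy, and OE+Cy from Scr+Cy but not from OE. It was called higher with cytokines in ZIP (2.17 ± 0.68, adjusted p = 0.019) and OE (2.24 ± 0.69, adjusted p = 0.01). The call in ZIP was lost without ZIP+Cy replicate 3 (adjusted p = 0.0603). All Scr+Cy libraries were at or below 3 reads, the count taken as the floor of detection, equal to 0.0809 to 0.115 CPM. Set against 3 reads, the level in ZIP+Cy was at least 3.75-fold higher and that in OE+Cy at least 2.97-fold higher. The response of OE exceeded that of Scr by 3.59 ± 1.08 (adjusted p = 0.0199), a fitted value on these few reads. It was not called without Scr replicate 2 (adjusted p = 0.0514). The same difference for ZIP was 3.53 ± 1.07 and did not pass (adjusted p = 0.448).

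Irf8 (chr8:120736358-120756692, plus strand), which in blood directs the formation of monocytes and dendritic cells, was at or near 0 without cytokines. The counts were 0, 0, 1 and 0 reads in Scr, 0 in all ZIP libraries and 1, 1, 0 and 2 in OE. With cytokines Scr+Cy held 14, 23, 22 and 54 reads, ZIP+Cy 3, 3, 4 and 10, and OE+Cy 204, 374, 546 and 511. The 3 lines did not overlap with cytokines. In CPM the means were 0.9 ± 0.508, 0.171 ± 0.104 and 13.1 ± 4.45. Set against 3 reads per untreated library, Irf8 was at least 10.2-fold higher with cytokines in Scr, at least 1.66-fold in ZIP and at least 149-fold in OE, and all 3 rises were called (adjusted p = 2.43e-06, 0.00431 and 2.32e-11).

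With cytokines Irf8 was 14.5-fold higher in OE+Cy than in Scr+Cy (log2 3.85 ± 0.35, adjusted p = 6.32e-09), and lower in ZIP+Cy than in Scr+Cy (log2 -2.35 ± 0.48, adjusted p = 0.000734). It was the only IRF gene called in opposite directions in the comparisons of the lines with Scr+Cy, which share those 4 libraries. Its difference of responses between OE and Scr was 2.30 ± 2.90 (adjusted p = 0.645), an estimate that rests on 1 read in untreated Scr. Leukocyte markers, beside which Irf4, Irf5 and Irf8 are usually read, summed to 2.1 to 4.27 CPM in OE+Cy and 1.2 to 3.23 in Scr+Cy. Single markers went both ways, since the group means of Cd68 were 1.45, 1.27 and 2.39 CPM in Scr+Cy, ZIP+Cy and OE+Cy and those of Cd14 0.0154, 0.0176 and 0.241, while Ptprc stood at 0.0315 and 0.131 and had no read in OE+Cy. Their part in the Irf8 values was not tested.

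Between the lines without cytokines, the calls in the family were set beside those of all genes. None of the 8 genes was called in ZIP against Scr, where 12.2% of all genes were, and without the fold limit 1 of 8 passed (Irf3), against 28.3%. In OE against Scr 1 of 8 was called lower (Irf7), against 13.4% of all genes. Without the fold limit 4 of 8 passed (Irf1, Irf2, Irf3, Irf7), against 50.1%, so the share in the family was near that of the table.

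With cytokines, 2 of the 8 were called in ZIP+Cy against Scr+Cy (Irf4 higher, Irf8 lower), against 12.6% of all genes, and 3 of 8 passed without the fold limit, against 28.1%. In OE+Cy against Scr+Cy 3 of 8 were higher (Irf1, Irf4, Irf8), against 12.7%. Without the fold limit 7 of 8 passed, Irf5 being the exception, against 53.4%. The median of the 8 genes was 0.53 in that comparison and -0.07 for ZIP, beside 0.01 and -0.01 over all genes. The responses of OE and Scr differed by the same rule for Irf1, Irf4 and Irf7, all larger in OE, against 4.53% of all genes, and 5 of 8 passed without the fold limit (with Irf2 and Irf9), against 20%. The responses of ZIP and Scr differed for none of the 8, against 0.0565% of all genes. Of the 8, 1 (Irf4) passed an unadjusted p under 0.05 with the fold limit, and DESeq2 called none.

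**Figure D3:**
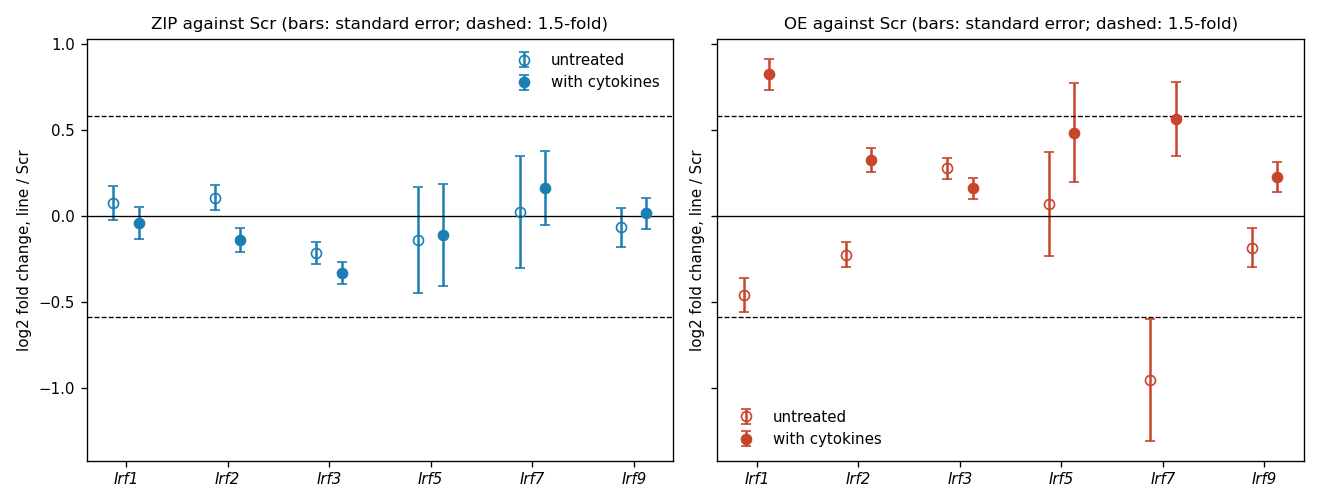
Log2 fold change of ZIP (left) and OE (right) against Scr for the same 6 IRF genes, without (open) and with cytokines (filled), with standard errors and the 1.5-fold limits dashed. For OE, Irf1, Irf2, Irf7 and Irf9 lie below 0 without cytokines and above 0 with them, while for ZIP all drawn points lie within the dashed limits. Irf4 and Irf8 are not drawn. With cytokines both were called, at 3.35 and -2.35 in ZIP and at 3.03 and 3.85 in OE, those of Irf4 on few reads.

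The study also set both treated lines against untreated Scr. There, 6 of 8 genes were higher in ZIP+Cy (against 11% of all genes) and 7 of 8 in OE+Cy (against 17.6%). Irf3 was called in neither. These comparisons share the Scr libraries with the ones above, and the log2 changes were 3.82 and 4.69 for Irf1, 5.53 and 5.93 for Irf7, and 3.79 and 4.00 for Irf9. The Irf4 calls rested on few reads (1.99 ± 0.65 and 1.67 ± 0.65), the one in ZIP+Cy was lost without ZIP+Cy replicate 3 (adjusted p = 0.0522), and the one in OE+Cy without Scr replicate 1, 3 or 4 or OE+Cy replicate 2, 3 or 4 (up to 0.0838).

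To compare levels between genes, CPM was divided by the length of the longest annotated coding transcript (GENCODE M21), giving CPM per kilobase (RPKM). On that scale the summed level of the 8 genes was 37.9 ± 0.84 in Scr, 38.1 ± 3.75 in ZIP and 33.6 ± 1.06 in OE. With cytokines Scr+Cy reached 329.5 ± 32.2, ZIP+Cy 328 ± 31.4 and OE+Cy 529 ± 62.9. In Scr, 3 genes were of like size, Irf1 (13.2 ± 0.89 RPKM), Irf2 (11.04 ± 0.55) and Irf3 (9.10 ± 0.50), and Irf9 (2.46 ± 0.17) and Irf7 (1.63 ± 0.42) were minor. In Scr+Cy the order became Irf1 (193 ± 14.8), Irf7 (67.3 ± 16.5), Irf9 (33.5 ± 1.86), Irf2 (24.6 ± 1.55) and Irf3 (10.7 ± 0.37). The order depends on the length used. With the mean length of the coding transcripts Irf2 (32.7 ± 1.62) came before Irf1 (22.0 ± 1.48) in Scr, Irf2 (72.8 ± 4.6) before Irf9 (47.0 ± 2.61) in Scr+Cy, and the family sum in Scr was 78.4 ± 1.41. With the longest transcript Irf4, Irf5 and Irf8 stayed below 1 RPKM in every group mean but one, Irf8 in OE+Cy (4.61 ± 1.56).

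The share of Irf1 in the summed RPKM went from 34.9 ± 2.04% to 58.6 ± 2.07% in Scr, from 36.5 ± 2.0% to 57.2 ± 1.47% in ZIP and from 28.7 ± 1.38% to 64.65 ± 1.87% in OE. With this length Irf3 had the highest share in untreated OE, 32.9 ± 1.77%, but with the mean length Irf2 had (40.1 ± 1.45%, Irf3 30.05 ± 1.75%). The share of Irf3 was 2.28 ± 0.20% in OE+Cy. Irf2, 29.2 ± 1.63% in Scr, made up 7.48 ± 0.42% in Scr+Cy (13.2 ± 0.63% with the mean length). Shares are parts of a sum, so the share of a gene can fall while its own level rises, as with Irf2.

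**Figure D4:**
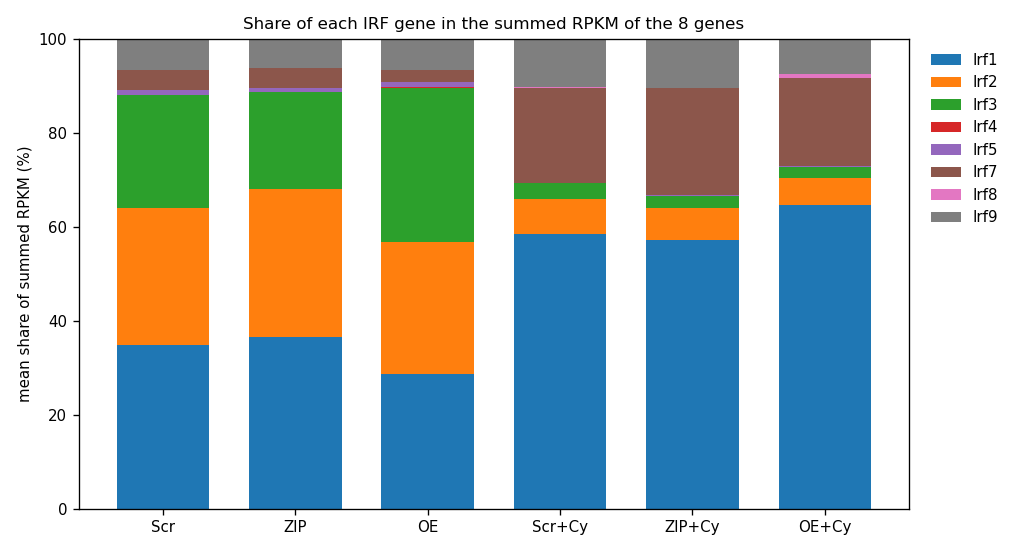
Mean share of each IRF gene in the summed RPKM of the 8 genes, in percent, for the 6 groups (n = 4 each, stacked to 100). Irf1, Irf2 and Irf3 fill most of the untreated bars, and Irf1, Irf7 and Irf9 those with cytokines.

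The genes around the family were taken from lists. Ifngr2, a subunit of the IFNγ receptor, rose by 1.32 ± 0.11 in Scr and 3.02 ± 0.12 in OE on the log2 scale, and Jak2 by 0.81 ± 0.09 and 1.68 ± 0.09. Ifngr1 (0.03 ± 0.10 and 0.17 ± 0.10) and Jak1 (0.18 ± 0.06 and 0.45 ± 0.06) were not called, and Jak1 overlaps Raver2 in the annotation, so its value is uncertain. The responses of Ifngr2 and Jak2 were larger in OE than in Scr, by 1.69 ± 0.16 and 0.86 ± 0.13 (edgeR adjusted p = 2.39e-07 and 4.37e-05).

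Among 14 sensors, adaptors and kinases that activate IRF proteins, 9 rose in Scr, 10 in ZIP and 8 in OE. The shares of all genes called higher were 5.96%, 6.12% and 11.8%. Ikbke, a kinase of IRF3 and IRF7, rose by 0.72 ± 0.13 in Scr and 1.94 ± 0.13 in OE, and the responses differed by 1.22 ± 0.18 (adjusted p = 6.27e-05). Tbk1, the related kinase, changed by 0.45 ± 0.06 and 0.53 ± 0.06, under the fold limit. Sting1, the adaptor of the cytosolic DNA pathway, was higher in OE than in Scr already without cytokines (1.5 against 0.172 CPM, log2 3.06 ± 0.41), and Mavs, its counterpart for RNA, was called in ZIP (0.84 ± 0.10) and OE (0.75 ± 0.10) and had a value of 0.56 ± 0.10 in Scr.

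Of 10 IRF partner genes 9 were listed. With cytokines 2 rose in Scr, 1 in ZIP and 3 in OE, against 5.96%, 6.12% and 11.8% of all genes. The genes of the IRF2-binding proteins were not called in any line's response, with levels of 50.2 to 54.5 CPM untreated for Irf2bp1 and 126 to 182 for Irf2bp2. Irf2bpl stood at 48.2 CPM in OE and 67.3 in OE+Cy. Spib, an ETS factor that pairs with IRF4 and IRF8, was called in Scr and OE on group means of at most 0.246 CPM. Its call was lost in Scr without Scr replicate 3 or Scr+Cy replicate 3 (adjusted p = 0.054 and 0.0531) and in OE without OE replicate 1 or 2 or OE+Cy replicate 4 (0.0695, 0.0716 and 0.0601). Without single libraries the partner genes called higher ranged from 1 to 2 in Scr, from 1 to 2 in ZIP and from 1 to 3 in OE.

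Textbook targets of the family also rose with cytokines. All 10 IRF1 targets and all 17 textbook interferon-stimulated genes were called higher in each of the 3 lines. Of all genes, 5.96% were called higher in Scr, 6.12% in ZIP and 11.8% in OE. These lists were chosen with earlier results of these data known, so the counts are no independent test. The IRF1 targets had a median of 5.96 in Scr, 5.60 in ZIP and 7.90 in OE, and the interferon-stimulated genes one of 6.17, 5.70 and 7.43. Tap1, the peptide transporter of antigen presentation, went from 14 to 578 CPM in Scr and from 5.18 to 681 in OE, and the immunoproteasome gene Psmb9 from 2.6 to 134 and from 0.468 to 146. Nos2, the inducible nitric oxide synthase, stood at 25 CPM in Scr+Cy, at 87.8 in ZIP+Cy and at 791 in OE+Cy, and Gbp2 at 1092 in Scr+Cy and 1937 in OE+Cy. Isg15 reached 54.4 CPM in Scr+Cy and 124 in OE+Cy, Mx1 7.4 and 14.1, Oas1a 66.9 and 149, and Ifit1 101 and 300.

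Of the interferon-stimulated genes, 14 of 17 were higher in OE+Cy than in Scr+Cy (median 1.16), against 12.7% of all genes. Of the IRF1 targets 5 of 10 were higher (median 0.72), and no gene of either list was called lower. Tap1 and Psmb9 were not among the higher IRF1 targets (0.24 ± 0.18 and 0.12 ± 0.14). Both were lower in OE than in Scr without cytokines (-1.44 ± 0.22 and -2.46 ± 0.33), and their responses were larger in OE by 1.67 ± 0.29 and 2.58 ± 0.36. In ZIP+Cy against Scr+Cy 12.6% of all genes were called in either direction. There 2 of the 10 IRF1 targets were higher, Nos2 (1.82 ± 0.38) among them, and 1 of the 17 interferon-stimulated genes. The latter call was lost without Scr+Cy replicate 1 or 4 or ZIP+Cy replicate 2, 3 or 4, and 1 IRF1 target was called lower without Scr+Cy replicate 1 or 3 or ZIP+Cy replicate 2, 3 or 4. The summed level of the 17 genes was 1220 to 2031 CPM in Scr+Cy, and it ran from 1376 to 2259 in ZIP+Cy and from 3317 to 4451 in OE+Cy.

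**Figure D5:**
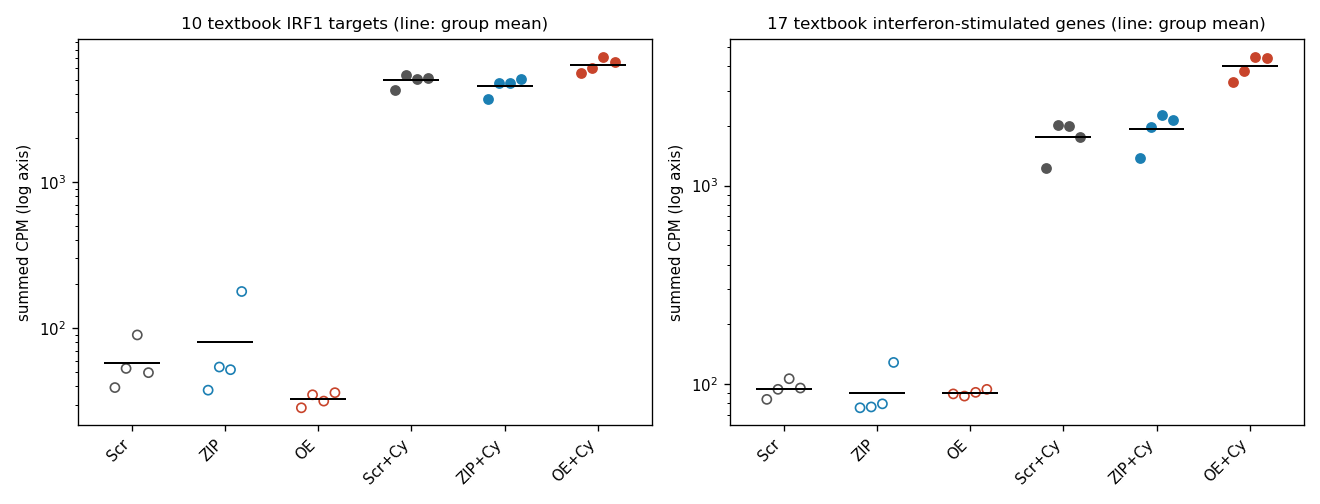
Summed CPM of the textbook IRF1 targets (left) and interferon-stimulated genes (right) in each library, on log axes, with a line at the group mean. The 4 OE+Cy libraries lie above all others in both plots, and ZIP replicate 4 above the other untreated libraries.

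Interferon genes themselves, the targets of IRF3 and IRF7, were barely represented. Of 9 on the list, 3 were listed in the table. Ifnb1 had 0 to 2 reads in every library. Ifnl2 and Ifnl3 had reads in OE+Cy only, 7, 3, 16 and 13 for Ifnl2 and 16, 15, 14 and 12 for Ifnl3, and 0 in the other 20 libraries. The latter are near-identical genes, so reads could have been divided between them.

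The 20 genes flanking each member, 10 on each side, had median log2 changes from -0.31 to 0.34 over all members and comparisons of groups. In the cytokine response of OE the neighbours of Irf1 had a median of 0.26 with 4 called higher (Irf1 itself 5.15), those of Irf7 0.058, those of Irf8 -0.044 and those of Irf9 0.038. In OE against Scr without cytokines 16 of the 20 neighbours of Irf1 were lower, with a median of -0.29 and 5 called, in the direction of Irf1 (-0.46), and with cytokines the median was 0.0086 (Irf1 0.83). The neighbours of Irf7 had a median of 0.030 in OE against Scr without cytokines, where Irf7 was lower, and in ZIP against Scr without cytokines 17 of the 20 were lower with 7 called, where Irf7 was at 0.03. With cytokines the neighbours of Irf8 had a median of 0.022 in OE against Scr and of -0.12 in ZIP against Scr. For Irf3 in ZIP against Scr with cytokines 16 of the 20 were lower, with a median of -0.091 and none called. The part of neighbouring genes in the members' values was not tested.

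By the pattern of the 6 group means of log2 CPM, each centred on its own mean, the genes nearest to Irf1 among 13309 at 1 CPM or more were Ifi206 and Csf1 (root mean square differences 0.19 and 0.19), to Irf7 Irgm1 (0.18) and Tap1 (0.22), and to Irf9 Hrh2 (0.14) and Ifi206 (0.15). Nearest to Irf2 were Nampt (0.09) and Psmg4 (0.10), to Irf3 Tradd (0.02) and Nme7 (0.03), and to Irf5 Taf4b (0.03) and Mrpl27 (0.06). For Irf8 the nearest were Tnfaip2 (0.69) and Misp (0.80), and Irf4 did not reach 1 CPM. These differences are not scaled to the range of a gene's group means, which was 7.61 in Irf8 and 0.61 in Irf3. With patterns scaled to unit variance the nearest gene was at 0.095 for Irf8 and 0.075 for Irf3.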

How the data were processed

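mRNA purified from total RNA of MIN6 cells was sequenced in 24 libraries, in 6 groups of 4 assigned from the labels. According to the methods and the submitters' processing notes, the authors aligned reads to mm10 with STAR (2.7.8a in the notes, another version in the methods) and counted RefSeq transcripts in Partek Flow. They deposited estimated counts per gene, of which 30.3% were not whole, and kept genes with at least 10 reads in total. The quantifier and its use of strand are not given in the sources used here. The deposited normalized table was not used.

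Estimated counts were rounded and fitted in edgeR 4.0.16 (R 4.3.3) with TMM scaling, 6 group means and glmQLFTest, and p values were adjusted over all 17696 genes (Benjamini-Hochberg). SE is the log2 fold change over the square root of F. The fit was tested on simulated data. Where a group had at most 3 reads in each library, folds were set against 3 reads per library. Floors cover counting error only. Replicate numbers, which the labels share, paired the libraries in 5 of 11 comparisons (every correlation of deviations from group means over 0.1), namely each line's cytokine response and ZIP against Scr without and with cytokines. The main fit held no replicate block, so its tests did not use that pairing.

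The 8 members, the gene lists and the markers were chosen with earlier results of these data known. Named were all members, the first 4 genes found of each list, and the 2 genes most like each member at 1 CPM or more. Ptprc, Cd68, Cd14, Tnpo3, Raver2 and the single β cell and other islet markers were named after their values or positions were seen. Sequences are from RefSeq (GRCm38.p6). Alternatives were DESeq2 1.42.0, its size factors, filterByExpr, a fit of the groups compared with and without a replicate block, an unadjusted p, no fold limit, mean transcript length, unit variance patterns, and leaving out libraries. Some genes are not reported here.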

Additional observations from a re-analysis of the deposited data

Results flagged for a closer look

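Dixon's test was applied to 44 groups, each of 1 IRF gene with more than 3 reads in some library. In these, 4 library values stood far from the other 3 of their group, which chance alone gives in about 1 of 20 groups. Irf1 was at 365 CPM in Scr+Cy replicate 1, where the others held 424 to 433. Irf2 was at 32.2 CPM in ZIP replicate 3 (others 28.6 to 29.1), Irf7 at 7.59 CPM in ZIP replicate 4 (others 1.98 to 2.76) and Irf9 at 5.68 CPM in OE replicate 1 (others 6.58 to 6.69). Without ZIP replicate 4 the untreated log2 difference of Irf7 between ZIP and Scr was -0.60 (edgeR adjusted p = 0.127), in place of 0.03.

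The cytokine response differed between OE and Scr, by an interaction term in edgeR, for 5 genes of the family: Irf1 (1.28 larger in OE on the log2 scale), Irf2 (0.55), Irf4 (3.59), Irf7 (1.52) and Irf9 (0.41). For Irf4 and Irf9 the adjusted p rose above 0.05 under some alternatives, with highest values of 0.0514 and 0.114.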

How the results depend on the processing

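Of 1528 values of the 8 genes under the alternatives, 1461 kept their direction and their side of the threshold. Leaving out single libraries changed the IRF genes called in OE against Scr without cytokines to between 0 and 1. Without a fold limit the IRF genes called became 1 (ZIP against Scr untreated), 4 (OE against Scr untreated), 7 (OE against Scr with cytokines) and 5 (difference OE minus Scr). All genes called without a fold limit were 3151, 4674 and 7884 for the responses of Scr, ZIP and OE, 5013 and 8869 for ZIP and OE against Scr untreated, 4966 and 9447 with cytokines, 7212 and 10528 for ZIP+Cy and OE+Cy against untreated Scr, and 3537 for the difference OE minus Scr. For the difference ZIP minus Scr, an unadjusted p called 583 genes with 1 IRF gene, DESeq2 29 and the replicate block 56.

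The replicate block turned the sign of Irf7 in ZIP against Scr untreated (-0.14) and of Irf5 in the difference ZIP minus Scr (-0.014), neither called, and called Irf7 in OE against Scr with cytokines (0.59). It changed no other call of an IRF gene. Without the 3 libraries with connective tissue markers, signs turned for Irf5 in OE against Scr untreated (-0.19), Irf9 in ZIP against Scr with cytokines (-0.020), and Irf7 (-0.17) and Irf9 (-0.0099) in the difference ZIP minus Scr. Leaving out single libraries turned only values that were not called. In ZIP against Scr untreated these ranged from -0.026 to 0.16 (Irf1), -0.63 to 0.22 (Irf4), -0.40 to 0.064 (Irf5), -0.60 to 0.23 (Irf7), -1.81 to 0 (Irf8) and -0.17 to 0.039 (Irf9). With cytokines they ranged from -0.092 to 0.024 (Irf1), -0.28 to 0.074 (Irf5) and -0.021 to 0.067 (Irf9). In the difference ZIP minus Scr they ranged from -0.17 to 0.29 (Irf5), -0.048 to 0.76 (Irf7) and -0.0061 to 0.19 (Irf9), and for Irf5 in OE against Scr untreated from -0.19 to 0.27. The causes were not tested. DESeq2 gave Irf4 no adjusted p in the difference OE minus Scr.

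With the mean transcript length the share of Irf1 was 28.1% in Scr, 29.1% in ZIP and 22.9% in OE, and Irf2 had the highest share in all 3. With patterns scaled to unit variance, 2 of the 14 genes named as most similar were named again. Depth limits Irf4, Irf5 and Irf8, which had few reads.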
